A study of Mus musculus with 41 samples.

Results

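Genes of the transforming growth factor beta (TGF-beta), activin and growth differentiation factor (GDF) signals were followed in the tibiae of 41 female mice. The members were 10 rows of the 43346 genes in the count table, chosen by gene symbol as ligands and binding proteins of this family: Tgfb1, Tgfb2, Tgfb3, Inhba, Inhbb, Gdf15, Mstn, Fst, Fstl3 and Ltbp1. All 10 passed the filter on low counts. All mice carried the INK-ATTAC transgene on a C57BL/6 background, so that the young and the vehicle-treated controls had it too. In this transgene a fragment of the p16Ink4a promoter drives a caspase fusion protein, and the drug AP20187 (AP) joins pairs of that protein and so kills the cells that make it. The model therefore reaches only cells in which that promoter is active. There were 12 young mice labelled as given vehicle, 13 old mice given vehicle (old-vehicle mice) and 16 old mice given AP at 10 mg per kg (old-AP mice). Young mice are labelled 6 to 12 months of age, and the methods name only the younger end of that range. Old mice entered treatment at 20 months and were injected for 4 months, so that they were 24 months old at sacrifice. Bone shafts had been centrifuged to clear the marrow before RNA was extracted.

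Ligands of this family are made as precursors whose mature part forms dimers. TGF-beta is secreted in a latent complex and is held in the matrix by latent TGF-beta binding proteins until it is released, and bone matrix is known as a large store of it. Activins are dimers of the inhibin beta chains, and they act through the same kind of receptor kinase pairs, which phosphorylate SMAD2 and SMAD3. Follistatin (Fst) and follistatin-like protein (Fstl3) bind activins and myostatin (Mstn) and keep them from their receptors.

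Total counts per mouse ranged from 37028959 to 75942717, and no mice of the same group were alike within counting error. The 8 skeletal muscle markers summed to between 15650 and 88630 CPM (counts scaled to library size by edgeR) in young mice, 13690 and 115500 CPM in old-vehicle mice and 7538 and 86980 CPM in old-AP mice. Markers of blood cells were also present in every group, and no marker list used here had a gene at 0 in all mice of a group. The tissue labels were matched by the osteocyte list, whose 5 genes summed to medians of 1336, 1445 and 1489 CPM in young, old-vehicle and old-AP mice. Old-AP mouse 19 had the highest erythroid, neutrophil and platelet sums of its group and the lowest Tgfb2, Tgfb3, Mstn and Fst. In bulk RNA, fewer cells of a type and less RNA per cell cannot be told apart.

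Levels of different members were compared per kilobase of the gene length that the table gives. In young mice Tgfb1, at 28.2 ± 6.68 CPM per kilobase (SD, n = 12), and Tgfb3, at 25.6 ± 5.0, were the highest, and in 8 of 12 mice Tgfb1 was above Tgfb3. Ltbp1 followed at 12.3 ± 1.42 CPM per kilobase, below both in all 12 mice. Fst (4.62 ± 1.01), Mstn (4.23 ± 2.40) and Tgfb2 (3.72 ± 0.797) formed a middle group whose ranges overlapped. Inhba (2.72 ± 0.508), Fstl3 (1.76 ± 0.291) and Inhbb (1.67 ± 0.461) were lower, and the last pair changed places in 5 of 12 mice. Gdf15 was lowest in every mouse, at 0.325 ± 0.189 CPM per kilobase. The order between Tgfb1 and Tgfb3 rests on the length used. The table gives Tgfb1 2558 bases, and the exons of GENCODE M21 cover 5042 bases, with which Tgfb3 ranks first in all 3 groups. With those exon lengths Fst and Inhba also rank lower.

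**Figure D1:**
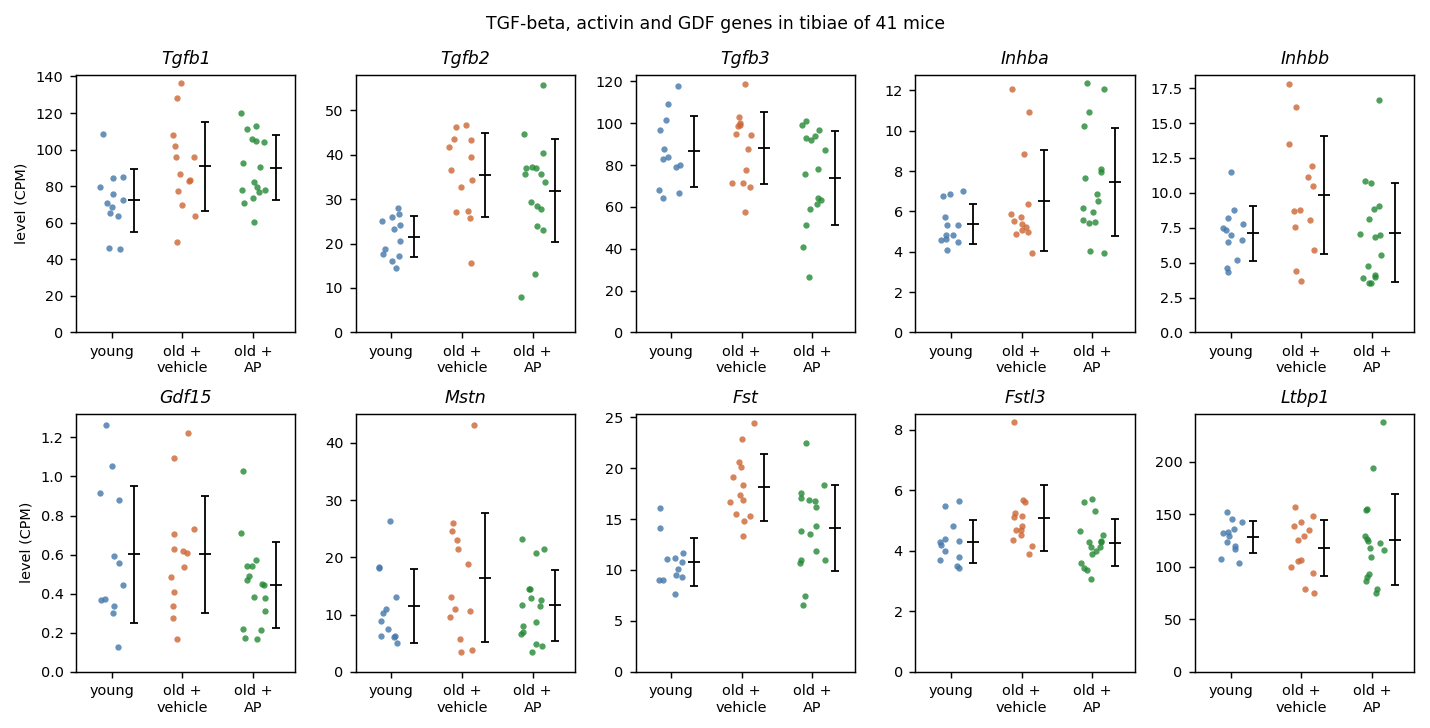
Level of each of the 10 genes in CPM (vertical axes, from 0) in 12 young, 13 old-vehicle and 16 old-AP mice, with 1 point per mouse and the mean ± SD beside it. For Fst, 10 of the 12 young mice lie below all old-vehicle mice, and for Tgfb2, 9 of 13 old-vehicle mice lie above all young mice.

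A gene was called when its adjusted p was under 0.05 and its change went past 0.5 (log2) either way. Of the 19292 genes tested, 9.06% were called between old-vehicle and young mice, with 4.3% of all tested genes higher and 4.76% lower. Among the members 2 of 10 were called, Tgfb2 and Fst, both higher. The median log2 fold change of the 10 members was 0.305, beside 0.007 over all genes tested.

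Of Tgfb1, Tgfb2 and Tgfb3, only Tgfb2 was called with age, and the ligands were not tested against each other. Tgfb2 (ENSMUSG00000039239, chromosome 1, 186622792 to 186705989 of GRCm38) ranged from 14.4 to 28.1 CPM in young mice with a median of 21.9, and from 15.6 to 46.7 CPM in old-vehicle mice with a median of 36.6. In old-AP mice it ranged from 7.91 to 55.7 CPM with a median of 34.8. Of the old-vehicle mice, 9 of 13 were above the highest young mouse, and only mouse 7 was below the young median. For Tgfb2 the log2 fold change in old-vehicle against young mice was 0.72 (standard error 0.19), with an adjusted p of 0.00624 by the quasi-likelihood test of edgeR after Benjamini-Hochberg correction. Leaving out any 1 of the 25 mice kept Tgfb2 called, between 0.67 and 0.79. Tgfb2 RNA moved with the amount of muscle RNA across mice, and with the skeletal muscle score as a covariate its log2 fold change was 0.62 (adjusted p = 0.00231). With a score of erythroid, neutrophil and B cell markers as a covariate it was 0.52 (adjusted p = 0.0246).

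Tgfb1 (ENSMUSG00000002603, chromosome 7, 25687002 to 25705077) is the ligand that bone matrix is best known to store. It ranged from 45.4 to 108 CPM in young mice with a median of 71.7, from 49.7 to 137 CPM in old-vehicle mice with a median of 86.9, and from 60.6 to 120 CPM in old-AP mice with a median of 86.4. The old-vehicle mice were above the young median in 10 of 13 mice, and the old-AP mice in 14 of 16, with wide overlap in both. Tgfb1 had log2 fold changes of 0.33 (standard error 0.13, adjusted p = 0.0764) in old-vehicle against young mice and 0.32 (standard error 0.13, adjusted p = 0.0762) in old-AP against young mice, and neither was called. With the skeletal muscle score as a covariate the adjusted p of Tgfb1 was 0.00075 for the first comparison (log2 fold change 0.41) and 0.021 for the other (0.26). Both values lie under the fold-change threshold.

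Tgfb3 (ENSMUSG00000021253, chromosome 12, 86056744 to 86079041), a ligand that uses the same receptors, did not pass the test with age. It ranged from 64.4 to 118 CPM in young mice with a median of 83.5, from 57.5 to 119 CPM in old-vehicle mice with a median of 94.6, and from 26.5 to 101 CPM in old-AP mice with a median of 77.0. On the log2 scale the difference of old-vehicle from young mice was 0.03 (95% interval -0.28 to 0.33, adjusted p = 0.931 from the same test). Tgfb3 overlaps Ttll5 in the genome, and the reads counted on that neighbour came to 17.1% of the reads of Tgfb3. Whether strand was used in counting is not given in the sources used here, so reads of overlapping genes cannot be told apart.

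The start of transcription is printed for Tgfb2, which was called with age, Tgfb1, which was not, and the muscle ligand Mstn. The aim is to show how these promoters differ in letters. RefSeq promoters (GRCm38.p6) were matched for 8 of the 10 members, with no entry for Fst and Tgfb3. Each line gives the 100 bases before the start site, 5′ to 3′ on the gene's strand, and capitals mark the motifs found. The TATA box was searched as TATAAA on both strands. The GC box was searched likewise on both strands as GGGCGG. For the E-box the search letters on both strands were CACGTG. The regions are chr1:186705990-186706089 on the minus strand for Tgfb2, chr7:25686902-25687001 on the plus strand for Tgfb1 and chr1:53061540-53061639 on the plus strand for Mstn.
Tgfb2: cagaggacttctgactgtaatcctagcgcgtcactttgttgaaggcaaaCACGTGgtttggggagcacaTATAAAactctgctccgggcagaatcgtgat
Tgfb1: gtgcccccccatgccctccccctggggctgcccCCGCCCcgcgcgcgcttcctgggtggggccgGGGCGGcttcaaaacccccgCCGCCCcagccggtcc
Mstn: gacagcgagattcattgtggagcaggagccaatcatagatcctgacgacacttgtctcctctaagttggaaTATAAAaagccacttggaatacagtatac
The TATA box of Tgfb2 begins 31 bases before the start and that of Mstn 29 bases before it, while the capitals of Tgfb1 are 3 GC boxes and no TATA box. In the 250 bases before the start, the TATA box stood in 4 of the 10 promoter entries of the members (Fstl3, Inhba, Mstn and Tgfb2) and in 12.4% of all 32851 promoters. The GC box stood in 3 entries (Fstl3, Inhbb and Tgfb1) and in 32.7% of all promoters, and the E-box in 2 entries (Gdf15 and Tgfb2) and in 6.02% of all promoters. A match of letters is a description and shows no binding.

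Inhba and Inhbb encode the beta A and beta B chains of activins. Inhba (ENSMUSG00000041324, chromosome 13, 16011851 to 16027211) ranged from 4.07 to 7.03 CPM in young mice with a median of 5.09, from 3.94 to 12.1 CPM in old-vehicle mice with a median of 5.55, and from 3.95 to 12.4 CPM in old-AP mice with a median of 6.69. The young mice lay close together. Of the old-vehicle mice, 9 of 13 were above the young median, 3 above the highest young mouse and 1 below the lowest. Of the old-AP mice, 14 of 16 were above the young median, 7 above the highest young mouse and 2 below the lowest. For Inhba in old-vehicle against young mice the log2 fold change was 0.28 (standard error 0.18, adjusted p = 0.284). Without old-vehicle mouse 16 it was 0.17.

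Inhbb (ENSMUSG00000037035, chromosome 1, 119415465 to 119422248) ranged from 4.31 to 11.5 CPM in young mice with a median of 7.18, from 3.68 to 17.8 CPM in old-vehicle mice with a median of 8.79, and from 3.52 to 16.7 CPM in old-AP mice with a median of 6.90. The spread was wider in old mice, with a coefficient of variation of 27.6% in young, 43.0% in old-vehicle and 49.6% in old-AP mice. For Inhbb in old-vehicle against young mice the log2 fold change was 0.47 (standard error 0.24, adjusted p = 0.159).

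Gdf15, a ligand induced by cell stress that acts on appetite through a brain receptor, was read at low levels. Gdf15 (ENSMUSG00000038508, chromosome 8, 70629393 to 70632456) ranged from 0.126 to 1.26 CPM in young mice with a median of 0.501, from 0.166 to 1.22 CPM in old-vehicle mice with a median of 0.606, and from 0.165 to 1.03 CPM in old-AP mice with a median of 0.446. The 3 ranges overlapped almost fully. On the log2 scale the difference of old-vehicle from young mice was -0.01 (95% interval -0.60 to 0.59, adjusted p = 0.991). Counts of Gfral, the receptor of Gdf15, were 0 in all 41 mice.

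Mstn, which encodes myostatin, the ligand that limits muscle growth and is made mainly by muscle, varied most between mice among the abundant members. Mstn (ENSMUSG00000026100, chromosome 1, 53061640 to 53068079) ranged from 5.01 to 26.4 CPM in young mice with a median of 9.63, from 3.36 to 43.1 CPM in old-vehicle mice with a median of 13.02, and from 3.36 to 23.2 CPM in old-AP mice with a median of 11.6. The highest old-vehicle mouse, mouse 20, was 12.8 times the lowest. For Mstn in old-vehicle against young mice the log2 fold change was 0.52 (standard error 0.34, adjusted p = 0.298), and with the skeletal muscle score as a covariate it was 0.09 (adjusted p = 0.752). Without mouse 20 this value of Mstn was 0.31, and with the blood cell score as a covariate it turned to -0.08 (adjusted p = 0.866).

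Fst, the activin and myostatin inhibitor, had the clearest difference with age. Fst (ENSMUSG00000021765, chromosome 13, 114452262 to 114458730) ranged from 7.60 to 16.1 CPM in young mice with a median of 10.5, from 13.3 to 24.5 CPM in old-vehicle mice with a median of 17.4, and from 6.60 to 22.5 CPM in old-AP mice with a median of 14.1. All 13 old-vehicle mice were above the young median, and 10 of 12 young mice were below the lowest old-vehicle mouse. Fst rose by a log2 fold change of 0.74 in old-vehicle against young mice (standard error 0.14, adjusted p = 0.000299 by the same test). With each mouse left out in turn the value was between 0.70 and 0.81, with the muscle score as a covariate it was 0.69 (adjusted p = 0.000178), and with the blood cell score it was 0.64 (adjusted p = 0.00131).

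Fstl3 (ENSMUSG00000020325, chromosome 10, 79777272 to 79782630), the other follistatin-type inhibitor, ranged from 3.44 to 5.64 CPM in young mice with a median of 4.24, from 3.90 to 8.27 CPM in old-vehicle mice with a median of 4.82, and from 3.07 to 5.72 CPM in old-AP mice with a median of 4.202. Mouse 16 of the old-vehicle group, at the top of that range, stood well above the next mouse at 5.68 CPM. For Fstl3 in old-vehicle against young mice the log2 fold change was 0.25 (standard error 0.11, adjusted p = 0.0985), and 0.17 without mouse 16. Fstl3 overlaps Prss57, a gene whose reads came to 473% of those of Fstl3, so its level is uncertain.

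Ltbp1 (ENSMUSG00000001870, chromosome 17, 75005568 to 75392512), which anchors latent TGF-beta in the matrix, ranged from 104 to 152 CPM in young mice with a median of 131, from 74.6 to 157 CPM in old-vehicle mice with a median of 126, and from 75.0 to 238 CPM in old-AP mice with a median of 120. The centre was similar in the 3 groups while the coefficient of variation was 11.6% in young, 22.6% in old-vehicle and 34.4% in old-AP mice. For Ltbp1 in old-vehicle against young mice the log2 fold change was -0.12 (95% interval -0.41 to 0.17, adjusted p = 0.599), and -0.08 without old-vehicle mouse 23.

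**Figure D2:**
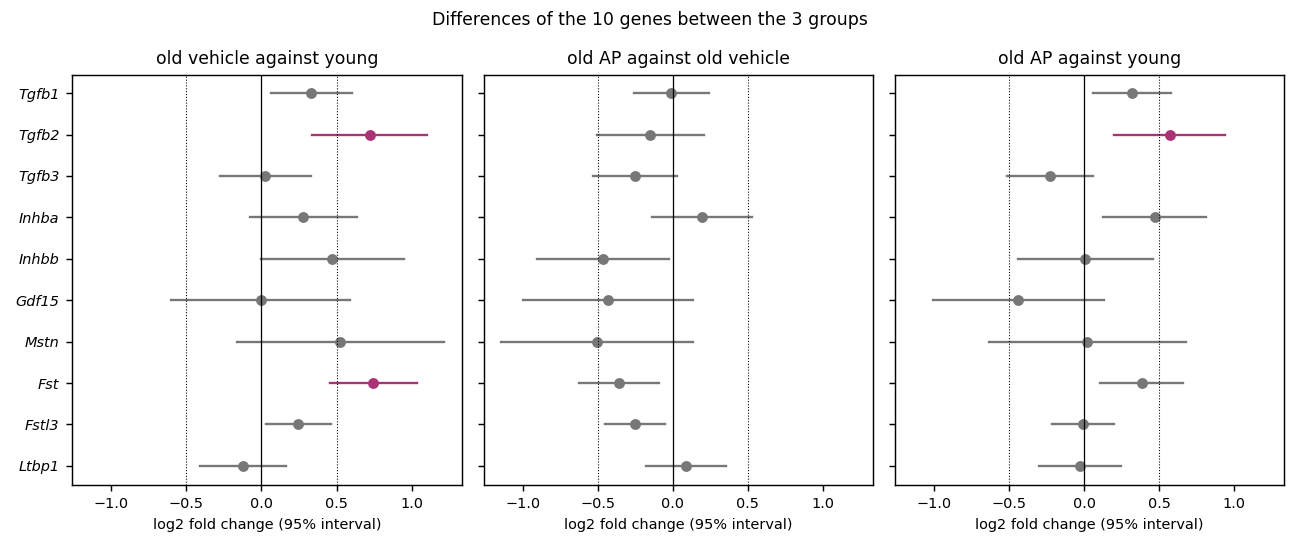
Log2 fold change of each of the 10 genes (points) with its 95% interval (lines) in the 3 comparisons, with dotted lines at the fold-change threshold of 0.5 and called genes in purple. Tgfb2 and Fst are called in old-vehicle against young mice, Tgfb2 alone in old-AP against young mice, and no member between the old groups.

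The comparison of the old groups asks what changed when cells with an active p16Ink4a promoter were targeted. None of the 10 members was called between old-AP and old-vehicle mice, by edgeR or by DESeq2, and 0.0726% of the genes tested were called by edgeR. Of the 10 members, 3 had an unadjusted p under 0.05 (Inhbb, Fst and Fstl3), beside 4620 of all 19292 genes tested, a similar share. Fst was below the old-vehicle median in 13 of 16 old-AP mice, with a log2 fold change of -0.36 (95% interval -0.63 to -0.10, adjusted p = 0.102 by edgeR). Fstl3 was also below that median in 13 of 16 mice, with a log2 fold change of -0.25 (95% interval -0.45 to -0.06, adjusted p = 0.12). Inhbb had a log2 fold change of -0.47 (95% interval -0.90 to -0.03, adjusted p = 0.185).

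The log2 fold changes of the other members between the old groups were -0.01 for Tgfb1, -0.15 for Tgfb2, -0.25 for Tgfb3, 0.19 for Inhba, -0.43 for Gdf15, -0.50 for Mstn and 0.09 for Ltbp1, with adjusted p from 0.26 to 0.962. For Mstn the 95% interval of -1.14 to 0.13 was the widest. With the skeletal muscle score as a covariate the log2 fold change of Mstn was 0.09 (adjusted p = 0.81). The median over the members was -0.253, beside -0.004 over all genes tested, and the 8 muscle markers had a median log2 fold change of -0.45 with 0 of 8 called and 2 at an unadjusted p under 0.05, again a share like that of all genes. The part of muscle RNA in the members other than through this covariate was not tested. Single mice moved several of these values. Mstn was at -0.295 without old-vehicle mouse 20, Tgfb2 at -0.08 without old-AP mouse 19, and Ltbp1 at 0.0017 without old-AP mouse 12. Inhba was at 0.12 without old-AP mouse 5 and at 0.30 without old-vehicle mouse 16.

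Between old-AP and young mice, 8.58% of the genes tested were called, 3.73% higher and 4.85% lower. Of the members, Tgfb2 was called at 0.57 on the log2 scale (standard error 0.18, adjusted p = 0.0268). Of the 16 old-AP mice, 11 were above the highest young mouse and 2, mice 18 and 19, were below the lowest. The call of Tgfb2 was lost without old-AP mouse 12 (0.50, adjusted p = 0.0446) and without young mouse 39 (0.52, adjusted p = 0.0505). Inhba (0.47, standard error 0.17, adjusted p = 0.0483) and Fst (0.38, standard error 0.14, adjusted p = 0.0454) passed the p threshold and lay under the fold-change threshold. Inhba was called in 4 of 28 fits with 1 mouse left out, the highest being 0.51 without old-AP mouse 27. The p threshold was lost for Inhba without old-AP mouse 5 (0.40, adjusted p = 0.0953) and for Fst without old-AP mouse 4 (0.31, adjusted p = 0.106). The 2 comparisons with young mice share those mice. For Fst the values against young mice were 0.74 in old-vehicle and 0.38 in old-AP mice, and the difference between the old groups was the one given for Fst that did not pass the test.

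The other genes of the pathway were taken as 6 lists of 62 genes, of which 56 were tested. The 6 genes Inhbc, Inhbe, Nodal, Lefty2, Gfral and Tdgf1 had too few counts. Between old-vehicle and young mice 2 of 56 were higher and 4 lower, with a median log2 fold change of 0.068 beside 0.007 over all genes. The 6 calls are a share close to the 9.06% of all genes tested. Between the old groups 0 of 56 were called by edgeR, 13 had an unadjusted p under 0.05 (beside 4620 of all 19292 genes tested, a similar share), and DESeq2 called 1, Gdf1. Between old-AP and young mice 3 were higher and 5 lower, beside 3.73% and 4.85% of all genes tested.

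**Figure D3:**
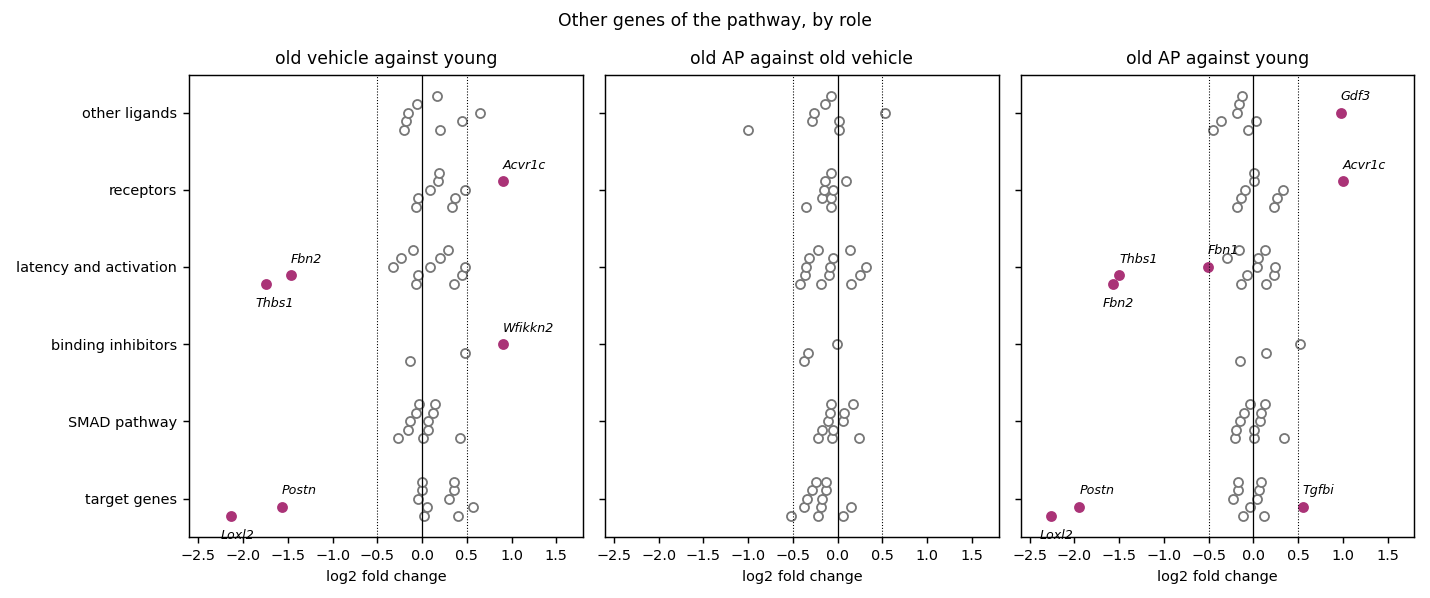
Log2 fold change of 56 further pathway genes, 1 circle per gene in rows by role, in the 3 comparisons, with called genes filled and named and dotted lines at 0.5 in either direction. Thbs1, Fbn2, Postn and Loxl2 lie far to the left in both comparisons with young mice, and no gene is filled between the old groups.

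Of 13 genes for latency and activation, 2 were lower in old-vehicle against young mice, beside 4.76% of all genes tested. Thbs1, which encodes thrombospondin, a protein that can release active TGF-beta from the latent complex, averaged 1029 CPM in young mice (SD 299, n = 12) and fell to 307 CPM in old-vehicle mice (SD 78.7, n = 13), and every old-vehicle mouse was below every young mouse (log2 fold change -1.74, standard error 0.17, adjusted p = 4.15e-09). In old-AP mice Thbs1 was at 365 ± 125 CPM (SD, n = 16). Fbn2, a microfibril gene active in growing tissue, fell from 61.7 ± 14.3 to 22.3 ± 7.78 CPM (log2 fold change -1.47, adjusted p = 7.02e-05), and it was at 20.9 ± 11.6 CPM in old-AP mice. In old-vehicle against young mice 4 of 5 megakaryocyte and platelet, 3 of 6 osteoblast and 2 of 5 chondrocyte markers were lower too, and their part in the fall of Thbs1 and Fbn2 was not tested. The platelet markers summed to between 313 and 1235 CPM in young, 240 and 511 CPM in old-vehicle and 235 and 1456 CPM in old-AP mice. Fbn1, whose microfibrils hold latent complexes, was lower in old-AP against young mice (log2 fold change -0.51, adjusted p = 0.00332), a call that held in 21 of 28 fits with 1 mouse left out. The latent binding proteins Ltbp2, Ltbp3 and Ltbp4 were not called, and Ltbp4 had a log2 fold change of 0.48 (adjusted p = 0.0658) with age. Ltbp4 was called without old-vehicle mouse 2, 20 or 21 or young mouse 31 or 40. Furin, of the same list, went up with age (0.36, adjusted p = 0.0053) and lay under the fold-change threshold.

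Of 12 target genes of the pathway, 2 were lower in old-vehicle against young mice, beside 4.76% of all genes tested. Loxl2, a collagen cross-linking oxidase, fell from 181 ± 56.3 CPM in young to 41.2 ± 13.4 CPM in old-vehicle mice (log2 fold change -2.13, standard error 0.24, adjusted p = 5.15e-08), with no overlap. Postn, which encodes periostin, a matrix protein of the bone surface, fell from 1048 ± 198 to 354 ± 226 CPM (log2 fold change -1.57, adjusted p = 9.87e-05). In old-AP mice Loxl2 was at 37.6 ± 19.2 and Postn between 77.8 and 597 CPM. Tgfbi, a matrix protein named for its induction by TGF-beta, was higher in old-AP against young mice (log2 fold change 0.55, adjusted p = 0.00804). Its call was lost in 3 of 28 fits, without old-AP mouse 19, 24 or 28, and with the skeletal muscle score as a covariate (0.4995). Ccn2, Pmepa1 and Cdkn2b had log2 fold changes of 0.36, 0.31 and 0.36 with age, and none passed the test (adjusted p from 0.14 to 0.196). Osteoblast markers were lower where Loxl2 and Postn were, with 3 of 6 lower in old-vehicle and 5 of 6 lower in old-AP against young mice, and their summed level ran from 15120 to 41410 CPM in young, 7028 to 40180 CPM in old-vehicle and 3012 to 32550 CPM in old-AP mice. Of the 5 chondrocyte markers, 2 were lower in each old group and the others were not called. The median log2 fold change of that list was -0.901 in old-vehicle and 0.472 in old-AP against young mice, with 1 and 3 of 5 positive. The part of these cells in the fall of Loxl2 and Postn was not tested.

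Among 9 tested receptor genes, Acvr1c, a type of activin receptor found in fat tissue, was higher in old-vehicle mice, at 1.07 ± 0.551 CPM (SD, n = 13) beside 0.569 ± 0.365 CPM (SD, n = 12) in young mice (log2 fold change 0.91, adjusted p = 0.027). The call was lost without old-vehicle mouse 13 or 22 or young mouse 38. In old-AP mice Acvr1c was at 1.14 ± 0.526 CPM (log2 fold change 1.002 against young mice, adjusted p = 0.0127). Of the 5 adipocyte markers, Plin1 was higher (1.35) and Adipoq lower (-0.58) in old-vehicle against young mice, and in old-AP against young mice 1, Adipoq, was lower (-0.68). The median of that list was 0.824 and 0.823, with 4 of 5 positive in both. The adipocyte sum ran from 259 to 453 CPM in young, 211 to 446 CPM in old-vehicle and 148 to 558 CPM in old-AP mice, and the part of fat cells in the level of Acvr1c was not tested. Eng (0.48, adjusted p = 0.0025), Acvr1b (0.37, adjusted p = 0.00174) and Acvrl1 (0.33, adjusted p = 0.00592) passed the p threshold with age and lay under the fold-change threshold. Eng was called, at 0.51 or 0.52, without old-vehicle mouse 20 or 21 or young mouse 32, 33 or 35. The main TGF-beta receptors Tgfbr1 and Tgfbr2 had log2 fold changes of -0.05 and 0.08.

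Of 3 further binding inhibitors, Wfikkn2, which binds myostatin, was higher with age, at 9.49 ± 4.25 CPM in old-vehicle and 5.09 ± 2.47 CPM in young mice (log2 fold change 0.90, adjusted p = 0.0253). With the blood cell score as a covariate it was 0.49 (adjusted p = 0.119). In old-AP mice Wfikkn2 was at 7.33 ± 3.57 CPM and was not called against young mice (log2 fold change 0.53, adjusted p = 0.186), while with the skeletal muscle score as a covariate it was called higher (0.71, adjusted p = 1.21e-06). None of the 11 SMAD pathway genes was called in any of the 3 comparisons, with 4, 3 and 3 at an unadjusted p under 0.05 in old-vehicle against young, old-AP against old-vehicle and old-AP against young mice, beside 6141, 4620 and 6220 of all 19292 genes tested. The smallest adjusted p in that list was that of Smurf2, a ubiquitin ligase for SMADs and receptors, with a log2 fold change of -0.27 with age (adjusted p = 0.000137), and in old-AP against old-vehicle mice that of Trim33 (0.24, adjusted p = 0.0536). Smad7, the inhibitory SMAD, had 0.43 with age (adjusted p = 0.00416), also under the fold-change threshold. Of 8 other ligands tested, Gdf3 was higher in old-AP against young mice (log2 fold change 0.98, adjusted p = 0.007), with 0.69 when old-AP mouse 24, the highest at 25.1 CPM, was left out. Gdf1 had a log2 fold change of -1.001 between the old groups (adjusted p = 0.0619 from edgeR, 0.0276 from DESeq2). Gdf1 shares its locus with Cers1 and Upf1, whose reads exceed its own many times over, so this value is uncertain. It was called in edgeR fits without old-vehicle mouse 2 or without old-AP mouse 9 or 10.

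Mice of the same group were next compared with each other, after the group mean of each gene was removed. Pearson's r and Spearman's rho were computed over 41 mice for 45 pairs of members and 130 pairs of a member and a score of one of 13 marker lists, with two-sided permutation tests of 100000 resamples within groups and adjustment over all 175 pairs. The smallest p these tests can give is 1e-05. Of the 45 pairs of members, 19 had an adjusted p under 0.05 by r and 20 by rho. Genes of 1 mouse share a library and its makeup.

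Tgfb2 and Tgfb3 went together most closely (r = 0.89, rho = 0.82, permutation p = 1e-05, adjusted p = 0.00012). The r was 0.76 within young, 0.82 within old-vehicle and 0.94 within old-AP mice, 0.81 without the 2 mice farthest from the median of Tgfb2, and 0.84 without old-AP mouse 19. With the skeletal muscle score removed from both genes it was 0.79. Fst went with Tgfb2 (r = 0.65, rho = 0.55, permutation p = 9e-05, adjusted p = 0.00061), chiefly in old-AP mice, where r was 0.89, against 0.05 in young and 0.24 in old-vehicle mice, a difference that was not tested. Without the 2 mice farthest from the median of Tgfb2 the r of Fst with Tgfb2 was 0.40, and without old-AP mouse 19 it was 0.52.

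Tgfb1 went the other way from Tgfb2 and Tgfb3. For Tgfb1 and Tgfb3 r was -0.50 (rho = -0.52, permutation p = 0.00031, adjusted p = 0.0017), and for Tgfb1 and Mstn it was -0.77 (rho = -0.75, permutation p = 1e-05, adjusted p = 0.00012). Without the 2 mice farthest from the median of Tgfb1 these r were -0.50 and -0.72. After the skeletal muscle score was removed, r was 0.14 for Tgfb1 and Tgfb3 (adjusted p = 0.554) and -0.34 for Tgfb1 and Mstn (adjusted p = 0.112), and neither passed the test. Tgfb1 and Inhbb went together before and after that step (r = 0.51 and 0.66, rho = 0.49, permutation p = 0.00091, adjusted p = 0.00419 before it and 0.00016 after it).

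**Figure D4:**
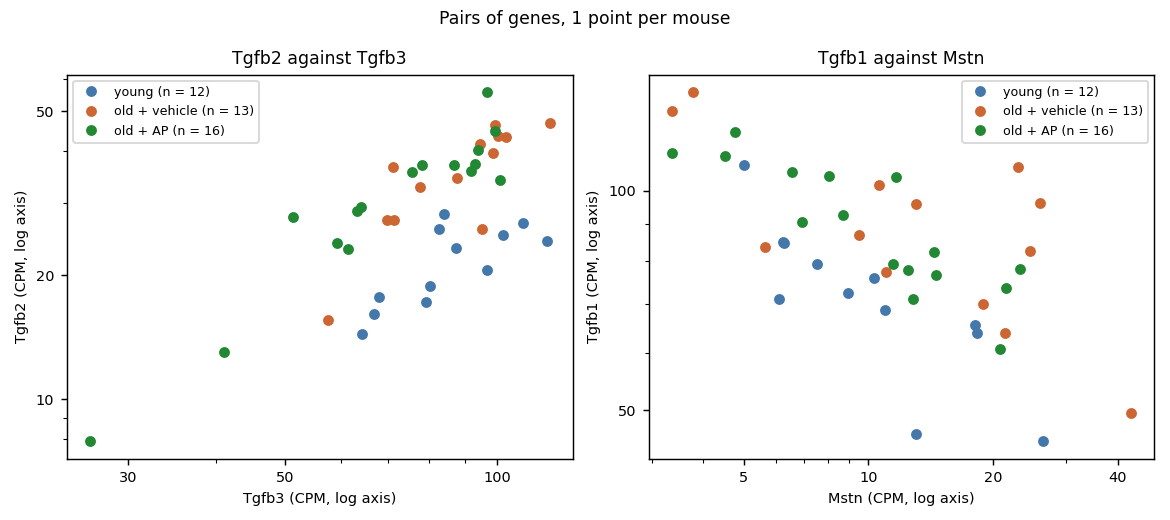
Tgfb2 against Tgfb3 and Tgfb1 against Mstn in CPM on log axes, 1 point per mouse in 12 young, 13 old-vehicle and 16 old-AP mice. Tgfb2 and Tgfb3 rise together in each group with the young mice on a lower line, old-AP mouse 19 is the lowest point at 7.91 and 26.5 CPM, and Tgfb1 is lower where Mstn is higher.

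The marker lists divide the members by the kind of RNA they go with, and 50 of the 130 pairs had an adjusted p under 0.05. Mstn followed the skeletal muscle score (r = 0.88, rho = 0.90, permutation p = 1e-05, adjusted p = 0.00012), with r from 0.80 in young to 0.94 in old-vehicle mice. Tgfb3 (r = 0.73) and Tgfb2 (r = 0.69) also followed it, and Tgfb1 went against it (r = -0.76, rho = -0.82, permutation p = 1e-05, adjusted p = 0.00012). Tgfb1 went with the megakaryocyte and platelet score (r = 0.71) and the macrophage score (r = 0.70), each with permutation p = 1e-05, while Tgfb2 and Tgfb3 went against the platelet score (r = -0.73 and -0.75). Platelets are known to carry much TGF-beta protein of the kind that Tgfb1 encodes. After the muscle score was removed, r of Tgfb1 was 0.45 with the macrophage score (adjusted p = 0.021) and 0.31 with the platelet score (adjusted p = 0.116). The r with the platelet score was then -0.442 for Tgfb2 (adjusted p = 0.0283) and -0.445 for Tgfb3 (adjusted p = 0.0281).

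Ltbp1 went with the bone cell scores, at r = 0.81 with both the osteocyte (rho = 0.81) and the osteoblast score (rho = 0.80), each with permutation p = 1e-05 and adjusted p = 0.00012, and at r = 0.64 with the osteoclast score. These r were 0.90, 0.80 and 0.64 after the muscle score was removed. With the endothelial score the r of Ltbp1 was 0.60 (permutation p = 0.0004, adjusted p = 0.00206), and 0.67 after the muscle score was removed. Tgfb2 also went with the osteocyte score (r = 0.81, rho = 0.59, permutation p = 1e-05, adjusted p = 0.00012), at 0.93 in old-AP, 0.60 in old-vehicle and 0.13 in young mice. Without the 2 mice farthest from the median of Tgfb2 this r was 0.64. Tgfb3 had r = 0.70 with the osteocyte score (rho = 0.476, permutation p = 6e-05, adjusted p = 0.00046). In young mice that r of Tgfb3 was 0.14, and without the 2 mice farthest from its median it was 0.45. Inhbb went with the osteoblast score (r = 0.62, rho = 0.73, permutation p = 9e-05, adjusted p = 0.00061), and Fst with the endothelial score (r = 0.66, rho = 0.55, permutation p = 4e-05, adjusted p = 0.00035). Fst had the same r of 0.66 with the osteocyte score (rho = 0.46, permutation p = 0.00011, adjusted p = 0.00071). In young mice these r of Fst were 0.18 and 0.07, and without the 2 mice farthest from its median they were 0.46 and 0.41. Inhba had an adjusted p under 0.05 with 1 of 13 lists, the endothelial one (r = -0.42, rho = -0.32, permutation p = 0.016, adjusted p = 0.0425), which did not hold by rho (adjusted p = 0.126). By rho it was the neutrophil list that passed for Inhba (rho = 0.48, permutation p = 0.00238, adjusted p = 0.0104), with r = 0.37 (adjusted p = 0.0654). Without old-vehicle mouse 16 the r of Inhba with the neutrophil score was 0.66 (adjusted p = 0.00021). This r was 0.32 without old-AP mouse 19 (adjusted p = 0.137) and 0.32 with the muscle score removed (adjusted p = 0.171), and neither passed.

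**Figure D5:**
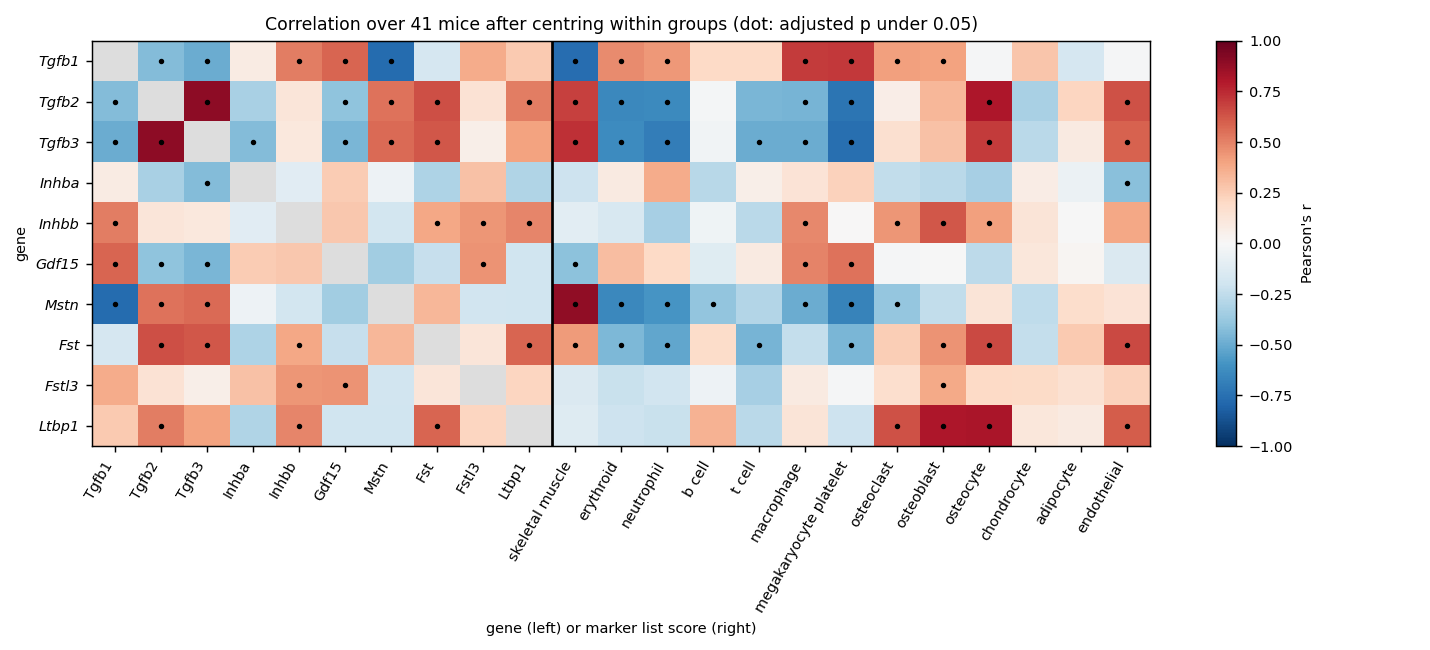
Pearson's r over 41 mice, centred within groups, of the 10 genes (rows) with each other (left columns) and with 13 marker list scores (right columns), where red is positive, blue negative and a dot marks an adjusted p under 0.05. Mstn is darkest with skeletal muscle at 0.88, Ltbp1 with osteocytes and osteoblasts at 0.81, and Tgfb1 has the opposite sign to Tgfb2 and Tgfb3 for muscle and platelets.

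For each member, the 3 genes with the highest r over the 41 mice were taken among genes averaging at least 1 CPM, as a description with no test. For Tgfb2 they were Cped1 (r = 0.91), Prrx1 (0.91), a transcription factor of limb mesenchyme, and Jam2 (0.91), and for Tgfb3 they included Habp4 (0.92) and Ttl (0.90). Ltbp1 was most like Kirrel (0.93), Cald1 (0.92), an actin-binding protein, and Daam2 (0.92). Tgfb1 was most like Plscr3 (0.93), Cnn2 (0.93) and 1700017B05Rik (0.92). Mstn was most like Mybpc2 (0.96), a protein of fast muscle fibres, Sms (0.94) and Smyd2 (0.94).

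For Inhbb the nearest genes were Plxna1 (0.83), Slc39a7 (0.81) and Scarf2 (0.80), and for Fst they were Ptpn14 (0.79), Ptprg (0.79) and 9430020K01Rik (0.77). The nearest genes were less alike for Gdf15, with Comtd1 (0.76), Iffo1 (0.74) and Sh2b2 (0.73), for Inhba, with Pfkfb4 (0.73), Tmem43 (0.725) and Lbp (0.70), and for Fstl3, with Zfpl1, Cdk20 and Ror2 (0.715 each). For Inhba and Lbp the r in young mice was -0.25, and in old-vehicle and old-AP mice it was 0.71 and 0.81.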

How the data were processed

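RNA from tibiae of 41 mice was sequenced by the authors, who deposited raw counts per gene in 1 table with 1 column per mouse. The submitters' processing notes name TopHat2 2.0.6, HTSeq and GRCm38. The annotation release and the strand setting are not given in the sources used here. All 41 columns were used, and the 37 mitochondrial genes are listed at 0 in every mouse. The counts were normalized with TMM, filtered by expression and compared by quasi-likelihood tests in a joint fit of all 3 groups (edgeR 4.0.16, R 4.3.3), with Benjamini-Hochberg adjustment over 19292 genes. CPM are TMM-scaled, log2 CPM used a prior count of 2, and a marker score is the mean z-score of its genes. Groups follow the sample labels, which name no batch, and p-values measure the spread between mice. Alternatives were DESeq2 1.42.0, its size factors, an unfiltered table, fits of 2 groups alone, calls by p alone, muscle or blood scores as covariates and each mouse left out. Correlations without old-AP mouse 19 were chosen after seeing the data. The members and gene lists were chosen with earlier results of these data known. The genes named are the 10 members, every called pathway gene (up to 4 per list and comparison), the gene of smallest adjusted p in a list without calls, and the 3 genes most like each member. Others named were chosen after their values were seen. Some genes that these rules take in are not reported here. Of the 13 marker lists, in old-vehicle against young mice 3 of 7 erythroid, 5 of 6 B cell, 4 of 5 megakaryocyte and platelet, 3 of 6 osteoblast and 2 of 5 chondrocyte genes were lower, 2 of 8 skeletal muscle genes were higher, 2 osteocyte genes were higher and 1 lower, 1 adipocyte gene was higher and 1 lower, and 0 were called for neutrophils, T cells, macrophages, osteoclasts and endothelial cells.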

Additional observations from a re-analysis of the deposited data

How the results depend on the processing

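Tgfb2 and Fst stayed called with age under DESeq2, its size factors, no filter, models of 2 groups and each covariate alone. The muscle and blood scores were not fitted together. Between the old groups the count of all genes called was 14 and depended on the setting. It was 202 with DESeq2, 0 with no filter, 0 in the model of 2 groups, 1 with the muscle score, 0 with the blood score and 33 with no fold-change threshold, and leaving out single mice gave 0 (without old-vehicle mouse 6, 7, 8, 16 or 23 or old-AP mouse 18 or 19) up to 405 (without old-AP mouse 9). The count of members called there was 0 in all of these, and that of pathway genes was 1 with DESeq2 and between 0 and 1 when single mice were left out. With no fold-change threshold the pathway count was 12 for old-vehicle against young mice (3736 of all genes), and for old-AP against young mice 14 (3437 of all genes), with 3 members called. Members called in that last comparison ran from 0 (without old-AP mouse 12 or young mouse 39) to 2 (without old-AP mouse 9 or 27 or young mouse 31 or 34) with each mouse left out.

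The values below changed sign, and the cause was not tested. Most of the fold changes were near 0, but Mstn was at 0.52 in old-vehicle against young mice and at -0.50 between the old groups. With the muscle score as a covariate, in old-vehicle against young mice Tgfb3 was -0.0767 and Gdf15 0.15, Mstn in old-AP against old-vehicle mice was 0.0892, and Inhbb in old-AP against young mice was -0.0086. With the blood score, Tgfb3 was -0.15, Gdf15 0.0777 and Mstn -0.0807 in old-vehicle against young mice, and Inhbb -0.0605 and Mstn -0.0928 in old-AP against young mice. For Inhbb the latter comparison gave -0.0022 with no filter and -0.0016 in the model of 2 groups. With each mouse left out, old-vehicle against young mice gave -0.0179 to 0.0728 for Tgfb3 and -0.13 to 0.14 for Gdf15. Old-AP against old-vehicle mice gave -0.0647 to 0.0505 for Tgfb1. Old-AP against young mice gave -0.13 to 0.0918 for Inhbb, -0.0799 to 0.20 for Mstn, -0.0511 to 0.0335 for Fstl3 and -0.12 to 0.0047 for Ltbp1. Of the 19 pairs of members that passed by r, those that turned with the muscle score removed were Tgfb1 with Tgfb2 (0.175), Tgfb1 with Tgfb3 (0.136), Tgfb2 with Mstn (-0.19) and Tgfb3 with Mstn (-0.241). Of these 19, 12 kept their side of the threshold. Pairs with a marker list turned too, among them Tgfb1 with the erythroid (-0.0418) and neutrophil scores (-0.135). Mstn turned with the macrophage (0.13) and platelet scores (0.0211). Gdf15 rests on the fewest reads of the members. No paired analysis was possible because each mouse number belongs to 1 mouse only.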

Other observations

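The ratio of Tgfb2 to Tgfb3 within a mouse, looked at after the pairs had been plotted and therefore given with no test, separated the young from most old mice more than either gene alone. The ratio of their CPM averaged 0.25 with an SD of 0.0391 in the 12 young mice, 0.40 with an SD of 0.0676 in the 13 old-vehicle mice and 0.425 with an SD of 0.0741 in the 16 old-AP mice. All 29 old mice were above the young median, and 11 of 13 old-vehicle and 14 of 16 old-AP mice were above the highest young mouse, at 0.334. Old-AP mouse 19, which was lowest in both genes, had a ratio of 0.299, the lowest of its group.

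The ratio of Fst to Inhba, an inhibitor to an activin chain, averaged 2.06 (SD 0.519) for 12 young mice, 3.09 (SD 1.08) for 13 old-vehicle mice and 2.23 (SD 1.22) for 16 old-AP mice. The ranges of the 3 groups overlapped, from 1.33 to 3.01, from 1.53 to 4.41 and from 0.604 to 4.55. The ratio of Fst to Inhbb was 1.59 ± 0.445 in young, 2.15 ± 0.916 in old-vehicle and 2.32 ± 1.10 in old-AP mice. These ratios were also chosen after the values were seen and carry no test.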
